A study of Mus musculus with 6 samples.

Results

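Host-cell genes of transplanted mouse squamous cell carcinomas were compared between tumours with and without p63. The genes were 53 names of markers of macrophages and monocytes (23), neutrophil granules (4), endothelium (15), pericytes (3), red blood cells (7) and cytotoxic lymphocytes (1). The 53 names were looked up among the gene names of the authors' deposited table, where 33 of them appear among 16381 entries. The other 20 are not listed, and the table stops at an unadjusted p of 0.462, so for those genes there is no value here. A change of any size with a larger p cannot be told apart from a name that the array lacks. Of the 53 names, 49 are current RefSeq symbols, 3 are older symbols (Lyzs, Lyz and Emr1) and 1 (Ahsp) was not matched. The table spells names in capitals (LYZ2, FLT1, HBB-B1, HBA-A1, PRF1), and they are given here in the usual mouse form.

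Both groups of 3 tumours carried the genotype p53+/-, p63L/L; K14-CreER on a mixed c57BL/6 - CD1 background. The carcinogen DMBA, applied weekly, had induced the primary tumour, whose separated cells were transplanted orthotopically into Nude mice. After 13 days of growth the hosts received tamoxifen (p63-excised) or vehicle (p63-intact) daily for 5 days, and tumours were taken 1 to 3 days after the last dose. Whole-tumour RNA was hybridised to Illumina bead arrays, 1 array a tumour. Cre is driven by the keratin 14 promoter, so the deletion is meant for epithelial cells, while the drug was given to the whole host, and drug and deletion cannot be told apart. The labels do not say that the tumours grew in separate mice, so a p-value measures the spread between these tumours, which may be partly technical. In RNA of whole tumours, fewer cells of a type and less RNA per cell cannot be told apart either. The same holds for RNA of host cells and RNA of the transplanted cells.

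A Nude mouse lacks a thymus and so makes few mature T cells, but it keeps macrophages, neutrophils, natural killer cells and B cells. Macrophages enter tumours as blood monocytes, which the receptor Csf1r keeps alive, and they carry lysozyme, complement C1q and scavenger receptors. Tumour vessels are lined by endothelial cells that respond to the ligand Vegfa through Kdr and Flt1, and pericytes wrap them. Reticulocytes, the young red cells of the blood that stays in a tumour, still hold globin mRNA.

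The promoters of 5 listed genes are printed because their entries had the lowest changes or the smallest p among the erythroid, endothelial and macrophage members with a RefSeq promoter. Each is the 250 bases before the gene start, 5′ to 3′ on the gene's strand, from RefSeq, build GRCm38.p6. In the erythroid pair, capitals mark GATAA (letters bound by GATA factors) and CACCC (letters bound by Klf1 and related factors). In the other promoters, capitals mark GGAAG (letters bound by ETS factors). Each was searched on both strands, a match on the other strand is in capitals as its reverse complement, and none of these motifs overlaps another.
Hba-a1, chr11:32283422-32283671, plus strand: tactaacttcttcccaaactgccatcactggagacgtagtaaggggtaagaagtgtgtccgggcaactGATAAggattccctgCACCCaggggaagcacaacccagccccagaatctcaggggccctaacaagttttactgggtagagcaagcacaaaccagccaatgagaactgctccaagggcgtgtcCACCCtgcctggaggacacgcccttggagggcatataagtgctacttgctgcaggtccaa
Alas2, chrX:150547167-150547416, plus strand: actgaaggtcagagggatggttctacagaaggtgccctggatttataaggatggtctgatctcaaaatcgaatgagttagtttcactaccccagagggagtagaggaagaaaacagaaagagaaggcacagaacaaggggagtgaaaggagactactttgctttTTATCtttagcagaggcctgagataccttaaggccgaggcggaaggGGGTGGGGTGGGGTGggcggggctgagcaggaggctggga
Flt1, chr5:147726012-147726261, minus strand: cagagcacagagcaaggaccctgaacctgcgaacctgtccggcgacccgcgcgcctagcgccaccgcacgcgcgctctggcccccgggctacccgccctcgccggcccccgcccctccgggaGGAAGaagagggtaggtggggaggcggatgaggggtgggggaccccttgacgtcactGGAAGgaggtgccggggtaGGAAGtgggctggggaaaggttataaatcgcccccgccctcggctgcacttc
Robo4, chr9:37401722-37401971, plus strand: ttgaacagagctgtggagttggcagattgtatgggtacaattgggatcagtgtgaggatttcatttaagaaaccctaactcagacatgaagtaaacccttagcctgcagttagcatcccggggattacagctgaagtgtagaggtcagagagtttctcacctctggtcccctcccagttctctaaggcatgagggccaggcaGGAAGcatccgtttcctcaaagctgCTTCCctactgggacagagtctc
Lyz2, chr10:117282273-117282522, minus strand: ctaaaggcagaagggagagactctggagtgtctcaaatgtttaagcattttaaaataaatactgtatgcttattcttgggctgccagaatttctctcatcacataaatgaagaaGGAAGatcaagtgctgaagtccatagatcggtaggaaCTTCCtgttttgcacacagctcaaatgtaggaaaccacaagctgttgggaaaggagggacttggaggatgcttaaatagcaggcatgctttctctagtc

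GATAA was found in 22.6% of all 32851 promoters, in all 3 erythroid members with a promoter (Hba-a1, Hba-a2 and Alas2), in 1 of 8 endothelial and in 5 of 15 macrophage members with one. CACCC stood in 52.0% of all promoters, in the same 3 erythroid, in 6 of 8 endothelial and in 6 of 15 macrophage members. GGAAG stood in 64.1% of all promoters, in 3 of 3 erythroid, in 7 of 8 endothelial and in 11 of 15 macrophage members. The percentages count promoters, while a member counts once if any of its promoters holds the motif, so these shares are not strictly alike. These matches describe letters only, and each of these motifs was found in members of all 3 cell types. The promoters of Hba-a1 and Hba-a2 were identical over 247 aligned bases, offset by 3, and the genes themselves are near copies. A probe for one may therefore read both, which leaves the Hba-a1 value uncertain as to its gene. Hbb-b1 and Hbb-b2 lie next to each other, as do the lysozyme genes Lyz1 and Lyz2. The sequences of these pairs were not compared, and whether a probe for one gene also reads its neighbour was not tested.

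Named values come from the authors' deposited table, which gives for each gene name a t score, an unadjusted p, a mean level in log2 and a log2 change, with no value per tumour. Group means are the deposited mean level plus or minus the log2 change divided by 2, which holds for 3 arrays against 3. Standard errors and 95% intervals were worked back from the deposited change, t and p, and are not adjusted for the number of genes. Wherever group means, standard errors, intervals or adjusted p-values are given below for the authors' deposited table, they were worked out from it and are not columns of it. A gene was called at a Benjamini-Hochberg adjusted p under 0.05 with 45281 tests assumed, the number of probes on the array. This called 190 entries, 0.420% of the tests (0.181% lower and 0.239% higher in p63-excised tumours), or 1.16% of listed entries. Of the 33 listed members, 1 was called, Prf1, and it was lower in the p63-excised tumours. With the listed entries as the number of tests, 2.97% of them and again Prf1 alone among the members were called. Without adjustment, 7 of 33 listed members had p under 0.05, all lower, beside 19.9% of all listed entries (10.6% lower and 9.31% higher). The 7 were Prf1, Robo4, Lyz2, Hbb-b1, Flt1, Emr1 and Hba-a1. At least 2-fold lower were 4 members (Prf1, Hbb-b1, Hba-a1 and Lyz2) and 0 were 2-fold higher, beside 0.842% and 0.946% of listed entries. Negative changes were 24 of 33 (72.7%) with a median log2 change of -0.31, against 49.0% and 0.05 over all listed entries. At mean levels of at least 5.5, 16 of 22 members were negative with a median of -0.37, beside 2218 of 4269 entries and a median of -0.10 at such levels. That level is a mean over both groups, and Prf1 and Flt1 reached it only through the p63-intact tumours and Pdgfrb only through the p63-excised ones, so these counts are a description only. These medians describe the members that were listed, not all 53.

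**Figure D1:**
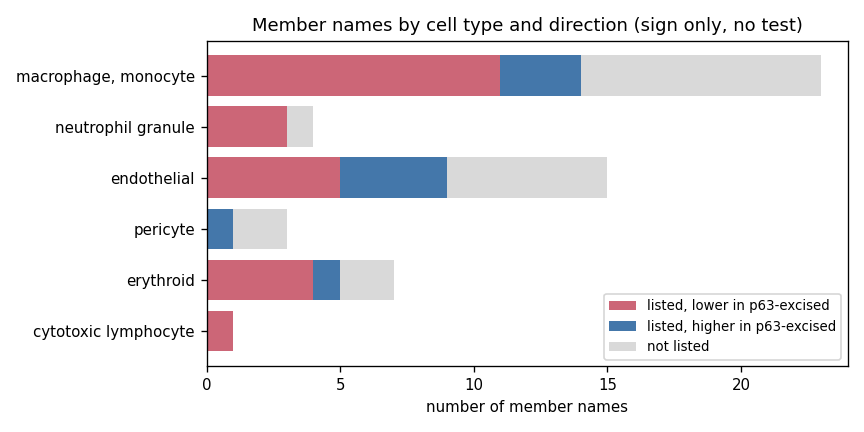
Bars give the number of member names in each cell type, split into entries listed as lower in p63-excised tumours, entries listed as higher and names not listed, by sign alone. Macrophage and monocyte names were lower for 11, higher for 3 and not listed for 9.

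The targeted gene, Trp63, averaged 8.83 in log2 with a change of -0.25 (p = 0.0639, adjusted p = 0.751) in the authors' deposited table, which is no call. Since the sources used here do not place its probe inside or outside the deleted exons, this value does not check the labels of the tumours. Overall detection overlapped between the groups and its difference was not tested. At a detection p under 0.05, 13757 to 16096 of 45281 probes were seen on the p63-intact arrays and 11964 to 14520 on the p63-excised arrays. The part of this in the values of the members was not tested.

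Among the members, the globin genes Hbb-b1 and Hba-a1 had the lowest changes after Prf1, and neither passed the test. Hbb-b1, a beta chain of adult haemoglobin, had a mean log2 level of 9.37 in p63-intact and 7.05 in p63-excised tumours, worked back from the authors' deposited table. The log2 change was -2.32 ± 0.67 (SE), a 4.99-fold lower level, with a 95% interval of -3.91 to -0.73. It had rank 18 from the lowest change up in the authors' deposited table (p = 0.011, adjusted p = 0.370). Hba-a1, the alpha chain that pairs with it, stood at a change of -2.13 ± 0.79 (SE) in the authors' deposited table, 4.38-fold lower (p = 0.0327, adjusted p = 0.592). Its group means, worked back from the authors' deposited table, were 10.97 and 8.84 in log2, and its interval ran from -4.03 to -0.23. Both standard errors were several times the median of 0.145 over entries at mean levels of at least 5.5.

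Hbb-b2, the minor adult beta chain, was at -0.67 (95% interval -1.55 to 0.21, p = 0.115) in the authors' deposited table. Alas2, the first enzyme of haem synthesis in red cell precursors, was at -0.59 (95% interval -1.34 to 0.16, p = 0.106) in the authors' deposited table. For both, the p63-excised mean lay near the lowest listed level of 4.62, at 4.94 for Hbb-b2 and 4.88 for Alas2, which limits how low a change could read. Slc4a1, the anion exchanger of the red cell membrane, was at 0.09 with a mean level of 4.86 in the authors' deposited table, so it was close to that floor in both groups. Hba-a2 and Ahsp, the alpha globin chaperone, are not listed. Ahsp had no RefSeq match, so it was not looked up under an older name. Of the 5 listed erythroid members, 4 were negative and 0 were called, beside 49.0% and 1.16% of all listed entries. An unadjusted p under 0.05 was found for 2, Hbb-b1 and Hba-a1, beside 19.9% of all listed entries (10.6% lower).

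**Figure D2:**
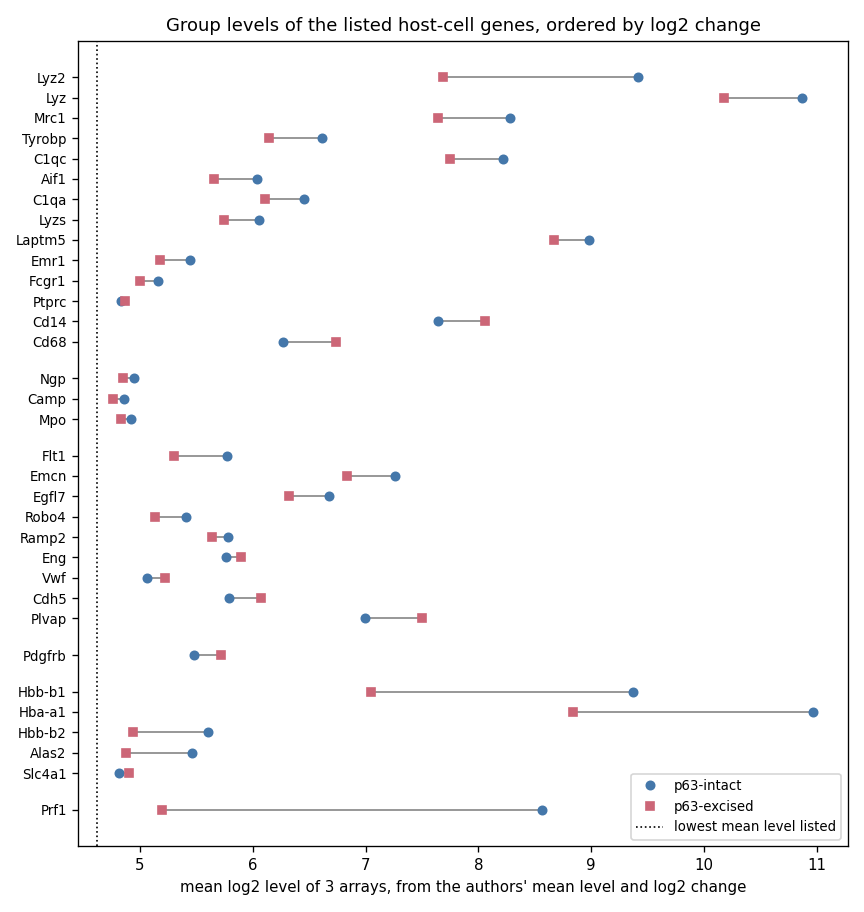
Each row is a listed member, with its mean log2 level in p63-intact tumours (circle) and p63-excised tumours (square), 3 arrays each, worked back from the authors' deposited table. Hbb-b1 (9.37 and 7.05), Hba-a1 (10.97 and 8.84) and Prf1 (8.56 and 5.20) have the longest lines, and neutrophil granule genes sit near the lowest listed level of 4.62.

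Other genes of red cell formation, membrane and haem handling gave no call. Of 45 further erythroid and iron names, 20 are listed in the authors' deposited table, 9 higher and 11 lower, with a median of -0.05. The iron storage gene Fth1 was nearest to a call, higher by 0.58 in log2 (95% interval 0.38 to 0.78, p = 0.0003, adjusted p = 0.0615) in the authors' deposited table. Alad, an enzyme of haem synthesis in all cells, was higher by 0.65 (p = 0.0118), and Spnb1, erythroid beta spectrin, by 0.54 (p = 0.0293), in the authors' deposited table, and neither passed (adjusted p = 0.382 and 0.563). Gypc, a red cell membrane glycoprotein gene also made by other cells, was at -0.52 (p = 0.0305, adjusted p = 0.573) in the authors' deposited table. Klf1, a transcription factor gene of red cell precursors, was at -0.09 with a mean level of 4.81 in the authors' deposited table.

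Of 9 names of platelet genes, whose mRNA also travels with blood, 5 are listed, 3 higher and 2 lower, with 0 calls. Ppbp, a platelet chemokine gene, was higher by 2.58 (group means 5.48 and 8.06, p = 0.00108, adjusted p = 0.115) in the authors' deposited table. Gp1bb, a subunit of the platelet von Willebrand factor receptor, was higher by 0.97 (p = 0.00214, adjusted p = 0.170) in the authors' deposited table. Gp9, Gp6 and Treml1 were between -0.11 and 0.08 in the authors' deposited table at mean levels of 4.83 to 4.89, so 3 of the 5 listed platelet genes lay near the floor.

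Macrophage and monocyte genes were lower for 11 of 14 listed names, with a median of -0.33 and 0 calls. Over all listed entries 49.0% were lower. An unadjusted p under 0.05 was found for 2 of the 14, both lower, beside 19.9% of all listed entries (10.6% lower). Lyz2, lysozyme M of macrophages and neutrophils, had the lowest change of the 14. Worked back from the authors' deposited table, it was at 9.42 in p63-intact and 7.69 in p63-excised tumours, a log2 change of -1.73 ± 0.44 (SE). Its 95% interval ran from -2.78 to -0.68, and it did not pass (p = 0.00627, adjusted p = 0.281) in the authors' deposited table. Lyzs is an older name of the same gene in RefSeq, and its entry was at -0.31 (95% interval -0.92 to 0.30, p = 0.267) in the authors' deposited table. These entries for 1 gene thus differ, -1.73 against -0.31, and the sources used here do not give which probe reads which transcript. Lyz, an older name of lysozyme P (Lyz1), was at -0.69 (95% interval -1.76 to 0.38, p = 0.169), and the entry under the current name Lyz1 at -0.21 (p = 0.0188, mean level 4.83), both in the authors' deposited table. The Lyz entry had a mean level of 10.52 in the authors' deposited table, against 4.83 for the Lyz1 entry, near the floor. RefSeq gives 1 gene for both names, so which gene the Lyz entry reads is uncertain. The Lyz entry is still counted among the 11 lower names.

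Emr1 encodes F4/80, the surface protein used to define mouse macrophages. Its mean levels, worked back from the authors' deposited table, were 5.45 and 5.18, a change of -0.27 (95% interval -0.51 to -0.03, p = 0.0319, adjusted p = 0.584). Tyrobp, the signalling adaptor of many myeloid receptors, was at -0.47 (95% interval -0.95 to 0.01, p = 0.0523), and Fcgr1, the high-affinity IgG receptor gene, at -0.16 (p = 0.0656), in the authors' deposited table. Laptm5, a lysosomal membrane gene of leukocytes, was at -0.31 (p = 0.0966) and Aif1, an actin-binding gene of macrophages, at -0.38 (p = 0.115) in the authors' deposited table. All 5 were lower in p63-excised tumours, and none passed.

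The complement genes C1qa and C1qc, which lie side by side with C1qb, were at -0.35 (95% interval -1.31 to 0.61, p = 0.413) and -0.47 (95% interval -1.58 to 0.64, p = 0.348) in the authors' deposited table. The mannose receptor gene Mrc1, a marker of tissue macrophages, was at -0.64 (95% interval -2.44 to 1.16, p = 0.424) in the authors' deposited table. Each of these 3 intervals holds both 0 and a 2-fold lower level. Cd68, a lysosomal macrophage protein gene, and Cd14, the lipopolysaccharide coreceptor gene, were higher, at 0.47 (95% interval -0.50 to 1.44) and 0.42 (95% interval -0.17 to 1.01) in the authors' deposited table, and neither passed. Ptprc, the pan-leukocyte phosphatase CD45, was at 0.04 with a mean level of 4.85 in the authors' deposited table, close to the floor, so it gives no measure of leukocyte content. Csf1r, Itgam, Cd163, Fcer1g, C1qb, Msr1, Cd74, Ctss and Mpeg1 are not listed.

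**Figure D3:**
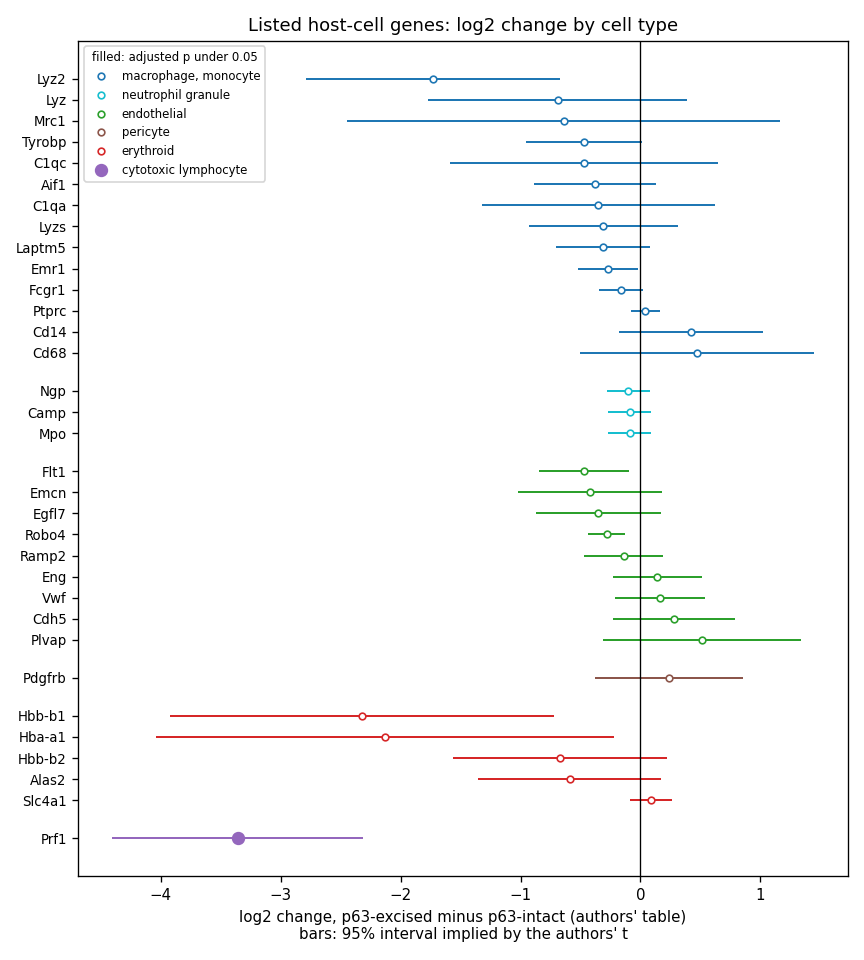
Points are the log2 changes (p63-excised minus p63-intact) of all 33 listed members in the authors' deposited table by cell type, with 95% intervals worked back from the deposited t. Prf1 at -3.36 is the single filled point (adjusted p under 0.05), and Hbb-b1, Hba-a1, Lyz2, Flt1, Robo4 and Emr1 are the open points whose intervals lie below 0.

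Further myeloid genes outside the member list also gave 0 calls. Of 46 names for macrophage growth factors, receptors and lysosomal or polarisation genes, 18 are listed in the authors' deposited table, 8 higher and 10 lower, and their median was -0.07. None of the 18 had an unadjusted p under 0.05. Those with the smallest p in the authors' deposited table were Trem1 (0.18), the fractalkine receptor gene Cx3cr1 (-0.21), Chi3l3 (0.27) and the cathepsin gene Ctsb (0.19). Arg1, an arginine-degrading enzyme of alternatively activated macrophages and of keratinocytes, was at 0.40 (p = 0.376) in the authors' deposited table. Among 16 dendritic cell names 6 are listed in the authors' deposited table, Xcr1 (0.11), Clec9a (0.09), H2-Ab1 (-0.36) and Flt3 (0.12) among them. Mast cell names were listed for 5 of 10, among them the growth factor receptor gene Kit (-0.10), the protease genes Mcpt4 (0.17) and Tpsab1 (0.27) and the receptor gene Mrgprb1 (0.13) in the authors' deposited table. No listed dendritic or mast cell name had an unadjusted p under 0.05.

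The listed neutrophil granule genes lay near the floor of the table. Ngp, Camp and Mpo, genes of granule proteins that neutrophil precursors transcribe, stood at -0.10 (p = 0.21), -0.09 (p = 0.255) and -0.09 (p = 0.246) in the authors' deposited table. Elane is not listed, so its level is not known here. The mean levels of Ngp, Camp and Mpo were 4.90, 4.81 and 4.88, below the median of 4.94 over all entries. None of these listed granule genes had signal clear of the floor. Lyz2, which neutrophils share with macrophages, did. Of 22 further neutrophil names, 14 are listed in the authors' deposited table, 7 in each direction. Lcn2 and Ltf, secreted iron-binding protein genes of neutrophils and of many epithelia, were higher by 2.91 and 3.41 (p = 0.0045 and 0.0253, adjusted p = 0.243 and 0.527) in the authors' deposited table. Stfa2, a stefin gene, was at -1.42 (group means 10.43 and 9.01, p = 0.000445, adjusted p = 0.0750) in the authors' deposited table and also did not pass. Il8rb, the neutrophil chemokine receptor CXCR2, was at 0.17 and Fpr1, the formyl peptide receptor, at -0.18, in the authors' deposited table (p = 0.0191 and 0.0367). Their mean levels there were 5.07 and 4.89, so both also lay near the floor.

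Endothelial genes were split, with 5 of 9 listed members lower and 4 higher, a median of -0.14 and 0 calls. Among all listed entries 49.0% were lower and 1.16% were called. Of the 9, 2 had an unadjusted p under 0.05, both lower, beside 19.9% of all listed entries (10.6% lower). Robo4, a receptor gene that stabilises vessels, had the smallest p of them, at a change of -0.28 ± 0.06 (SE) in the authors' deposited table (95% interval -0.43 to -0.13, p = 0.00292, adjusted p = 0.196). Its mean levels, worked back from the authors' deposited table, were 5.41 and 5.13. Flt1, a receptor and decoy for Vegfa, was at 5.78 and 5.31, a change of -0.47 (95% interval -0.84 to -0.10, p = 0.0192, adjusted p = 0.471) in the authors' deposited table. Emcn, a sialomucin of capillaries and veins, was at -0.42 (95% interval -1.01 to 0.17, p = 0.134) and Egfl7, a matrix protein that endothelium secretes, at -0.35 (95% interval -0.86 to 0.16, p = 0.147), in the authors' deposited table. Ramp2, a receptor partner for adrenomedullin, was at -0.14 (p = 0.336) in the authors' deposited table.

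Other endothelial members were higher in p63-excised tumours, and none passed. Plvap, which forms the diaphragms of fenestrated and tumour vessels, was at 0.51 (95% interval -0.31 to 1.33, p = 0.181), and Cdh5, the endothelial cadherin gene, at 0.28 (95% interval -0.22 to 0.78, p = 0.225), in the authors' deposited table. The clotting factor carrier gene Vwf was at 0.16 (p = 0.332) and Eng, a TGF-beta coreceptor gene, at 0.14 (p = 0.388), in the authors' deposited table. Pdgfrb, the receptor by which pericytes are recruited, was at 0.24 (95% interval -0.37 to 0.85, p = 0.379) in the authors' deposited table, and Rgs5 and Cspg4 are not listed. Pecam1, Kdr, Tek, Tie1, Esam and Sox18 are not listed under these names. Esam has an entry under its older name Esam1, which the list of names does not hold, at -0.67 (group means 6.71 and 6.04, p = 0.0155, adjusted p = 0.434) in the authors' deposited table.

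Ligands and receptors of vessel growth were lower for 9 of 12 listed names, beside 49.0% of all listed entries, and none passed. Of 26 names for angiogenic ligands and receptors, 12 are listed in the authors' deposited table, and their median was -0.18. An unadjusted p under 0.05 was found for 4 of the 12, all lower, beside 19.9% of all listed entries (10.6% lower and 9.31% higher). Angpt2, the ligand gene that loosens vessels for sprouting, was at -0.74 (group means 6.28 and 5.54, p = 0.0102, adjusted p = 0.353) in the authors' deposited table. Vegfa, made by tumour and stromal cells, was at -0.71 (group means 7.83 and 7.12, p = 0.0158, adjusted p = 0.438) in the authors' deposited table. Notch4, an endothelial Notch receptor gene, and Ephb4, a receptor gene of veins that some carcinoma cells also express, were at -0.43 and -0.38 (p = 0.00916 and 0.00937, adjusted p = 0.338 and 0.341) in the authors' deposited table.

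Of 38 further endothelial names, 23 are listed in the authors' deposited table, 20 lower and 3 higher, with a median of -0.17 and 0 calls. Over all listed entries 49.0% were lower. Ets1, a transcription factor gene of endothelium and of invasive carcinoma cells, was at -0.52 (p = 0.00571, adjusted p = 0.271) in the authors' deposited table. Hhex, a transcription factor gene of early endothelium, was at -0.34 (p = 0.00791), the tight junction gene Cldn5 at -0.43 (p = 0.0361) and Cd34 at -0.27 (p = 0.0404) in the authors' deposited table. Edn1, the vasoconstrictor endothelin gene, was higher by 0.43 (p = 0.0385) in the authors' deposited table. Of the 9 at a mean level of at least 5.5, all 9 were negative, with a median of -0.27. Of all entries at such levels in the authors' deposited table, 2218 of 4269 were negative, with a median of -0.10.

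**Figure D4:**
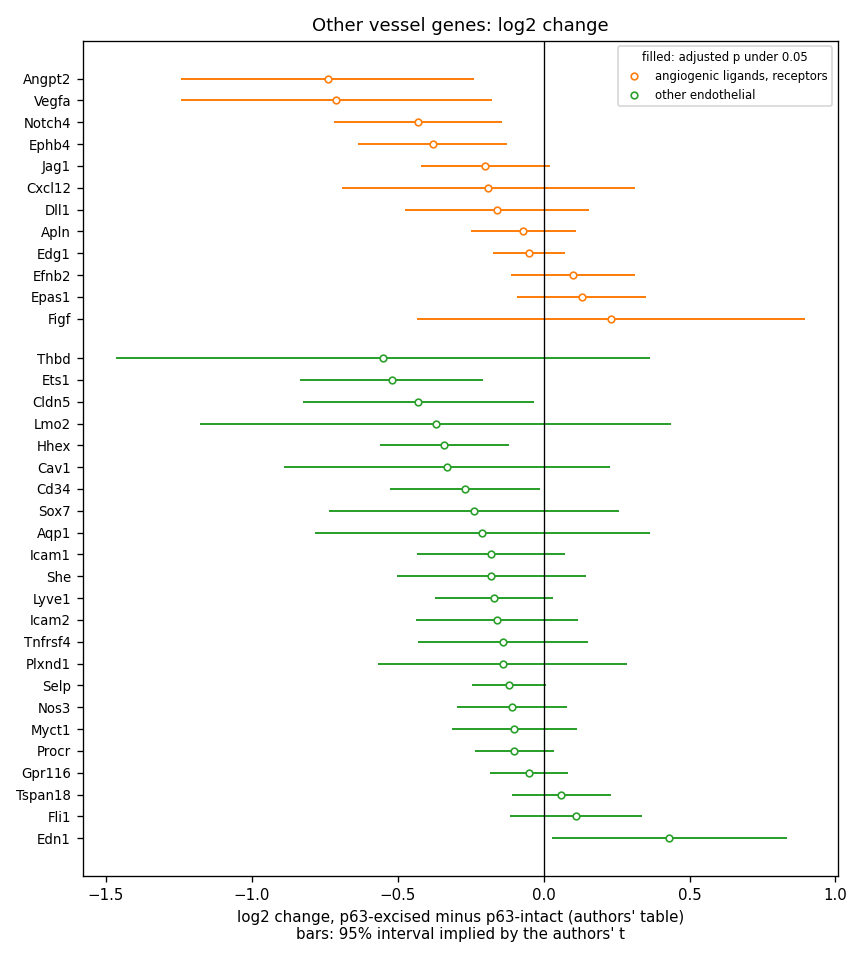
Points are log2 changes (p63-excised minus p63-intact) of listed vessel genes outside the member list, 12 angiogenic ligands and receptors and 23 other endothelial genes, with 95% intervals worked back from the authors' deposited table. Most points lie left of 0, Angpt2 at -0.74 and Vegfa at -0.71 lowest among the ligands and receptors, and no point is filled, since none passed the adjusted test.

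Of 13 names of the pericyte and smooth muscle layer 8 are listed, 3 higher and 5 lower, with 0 calls. Des, an intermediate filament gene of pericytes and of skeletal muscle, was higher by 1.40 (p = 0.000894, adjusted p = 0.105), and Notch3, the Notch receptor gene of pericytes, by 0.36 (p = 0.00934, adjusted p = 0.341), in the authors' deposited table. Kcnj8 and Cnn1 were at -0.22 and -0.17 (p = 0.025 and 0.0304) in the authors' deposited table, with mean levels of 5.03 and 4.97. Among fibroblast markers 6 of 11 are listed in the authors' deposited table, 4 lower and 2 higher, with the matrix proteoglycan genes Lum at -0.70 (p = 0.0558) and Dcn at -0.90 (p = 0.106), Dpt at -0.17 and Fap at 0.16. Adipocyte markers are listed for 4 of 9, with Lpl at -0.33 (p = 0.0318), Fabp4 at -0.11, Cidec at 0.08 and Retn at 0.07 in the authors' deposited table. The part of other stromal cells in the macrophage and vessel values was not tested.

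Prf1, the gene of perforin, the pore-forming protein of natural killer and cytotoxic T cells, fell from 8.56 to 5.20 in mean log2 level in the authors' deposited table. The log2 change in the authors' deposited table was -3.36 ± 0.43 (SE), a 10.3-fold lower level (p = 0.000141). Worked out from that table, the 95% interval was -4.39 to -2.33 and the adjusted p was 0.0420 with Benjamini-Hochberg. Prf1 had rank 7 from the lowest change up in the authors' deposited table, where 12 entries were lower by at least 3 in log2, 5 of them called. None of the other cytotoxic cell genes passed. Of 15 natural killer and cytotoxic names, 6 are listed in the authors' deposited table, 3 in each direction between -0.17 and 0.14, and each had an unadjusted p above 0.05. Klrd1, an inhibitory receptor chain, was at -0.17, Klrk1, the activating receptor NKG2D, at -0.12, Nkg7, a granule membrane gene, at -0.13 and Ncr1, the receptor NKp46, at 0.14 in the authors' deposited table. All 6 had mean levels of 4.74 to 4.93, below the table's median of 4.94. Gzma and Gzmb are not listed. T cell markers were listed for 4 of 13 (Cd3e, Cd3d, Cd247 and Lck), at 0.05 to 0.18 and mean levels of 4.88 to 4.97 in the authors' deposited table. Prf1 had a mean level of 6.88 there, above all these listed natural killer and T cell genes. Which cells made the Prf1 RNA, host lymphocytes or others such as the transplanted cells, was not tested.

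B cell markers were listed for 6 of 9 in the authors' deposited table. Igk-c, the constant region of the kappa light chain made by B cells and plasma cells, was at -1.52 (group means 6.52 and 5.00, 95% interval -2.50 to -0.54, p = 0.00817, adjusted p = 0.319) in the authors' deposited table. Ms4a1, Pax5, Igj and Pou2af1 were at -0.08 to 0.10 and mean levels of 4.84 to 4.95 in the authors' deposited table.

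**Figure D5:**
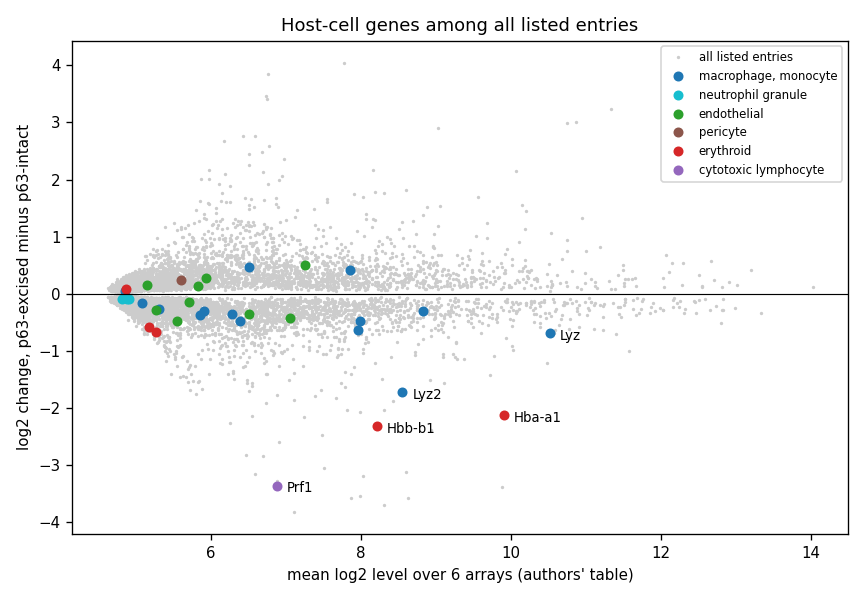
Grey points are all 16381 entries of the authors' deposited table, with the mean log2 level over 6 arrays on the x axis and the log2 change on the y axis, and coloured points are the 33 listed members. Prf1, Hbb-b1, Hba-a1 and Lyz2 lie below -1, and the other listed members lie between -0.69 and 0.51.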

How the data were processed

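Tumour RNA of 3 p63-intact and 3 p63-excised tumours was measured on Illumina bead arrays, per the labels' protocols. The authors deposited signal intensities and detection p-values by probe, per the file headers, and these served here only for the number of probes and for detection. They also deposited, per the file headers, a table of log2 changes, signed fold changes, mean log2 levels, t scores and unadjusted p-values by gene name. Per the submitters' processing notes, R 2.12.0 was used. How the values were normalized and probes joined into genes was not given in the sources used here.

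No file pairs probes with genes, so the planned limma fit of member probes was not run and no value per array is given. P-values of the deposited table were adjusted by Benjamini-Hochberg with 45281 tests assumed. The t and p values imply 6.69 degrees of freedom, which gave the 95% intervals. Members, gene lists and motifs were chosen with earlier results of these data known. The naming rule took called members, all listed erythroid, pericyte, neutrophil granule and cytotoxic members, up to 8 macrophage and 8 endothelial members by smallest p, and up to 4 genes by smallest p from each other list. Named beyond it, after their values were seen, were Lyzs, Cd68, C1qa, C1qc, Mrc1, Ptprc, Eng, Cd34, Gypc, Klf1, Arg1, Fpr1, Igj, Pou2af1, Treml1, Lyz1 and Esam1. A gene that the rule takes is not reported here. Promoters matched for 33 of 51 RefSeq genes. Python 3.11.15, pandas 2.3.3 and scipy 1.17.1 were used.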

Additional observations from a re-analysis of the deposited data

How the results depend on the processing

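Prf1 alone among the members was also called with the 16381 listed entries as the number of tests (adjusted p = 0.0152). A mean log2 level of at least 5.5 and a 2-fold minimum also gave 1 member, but neither could have removed Prf1, whose change is 10.3-fold and which passes the level through the p63-intact tumours (8.56 against 5.20). At an unadjusted p under 0.05 there were 7. The macrophage median of -0.33 and the median over all members of -0.31 became 0 when names not listed were set to 0. The erythroid median of -0.67 became -2.23 at a mean level of at least 5.5, where 2 globin entries remain. With Hbb-b1 and Hbb-b2 averaged into 1 value, the erythroid median became -1.04. Other medians moved by less than the spread between arrays that the deposited t implies. No paired analysis was possible because the named values come from a deposited comparison with no columns per tumour; for the same reason, leaving out each tumour, other normalizations, other filters on probes and the authors' value table were not run. Entries near the lowest listed level of 4.62 can hardly read lower, and the number of arrays limits the precision.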
